A study of Mus musculus with 95 samples.

Results

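Of the 5454 peaks called for RING1B in wild-type E14 mouse embryonic stem cells, 2629 (48.2%) carried PCGF2 without PCGF1. A RING1B peak was taken when it shared at least 1 bp with a peak of the wild-type PCGF2 list (4472 peaks) and none with a peak of the wild-type PCGF1 list (736 peaks). The members were thus chosen by the called peaks of 3 ChIP-seq samples (chromatin immunoprecipitation followed by sequencing), 1 for each antibody, and the wild-type levels of these 3 proteins at the peaks are a description. The peaks were compared with the 587 RING1B peaks that carried PCGF1, 91.7% of which carried PCGF2 as well, and with all 5454.

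The series holds 95 samples, of which 81 are ChIP-seq and 14 are RNA-seq. The groups are wild-type E14 cells and 6 derived lines, labelled Pcgf1-/-, Pcgf2/4-/-, Pcgf3/5-/-, Pcgf6-/-, Pcgf1/2/4-/- and Pcgf3/5/6-/-, in which the named Pcgf genes were edited with Cas9 and clones were picked. The double and triple lines were made by a further round of editing in single-knockout clones. PCGF lists were also used from cells labelled Ezh1/2-/-, which lack both PRC2 methyltransferases, and from the conditional line Ring1a-/-_Ring1bfl and the Ring1a/b-/- cells. All lines were grown on gelatin in serum-containing medium to which leukemia inhibitory factor, CHIR99021 (which inhibits GSK3β) and PD0325901 (which inhibits MEK1/2) were added, so each value below is from this one culture state. Each peak list came from 1 sample, except 2 samples each for RING1B and H2AK119Ub1 in Pcgf1/2/4-/-. Each RNA group had 2 libraries, and whether they came from separate clones or cultures is not given in the sources used here, so the p-values measure the spread between these libraries, which may be technical.

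Polycomb repressive complex 1 (PRC1) is a family of complexes built on the ubiquitin ligase RING1A or RING1B, which places a single ubiquitin on histone H2A (H2AK119Ub1). A PCGF protein pairs with RING1A or RING1B and sets which partners join. PCGF2 (also called MEL18) and PCGF4 (BMI1) form canonical PRC1 with CBX proteins that bind H3K27me3, the mark of Polycomb repressive complex 2 (PRC2), of which SUZ12 is a core subunit. PCGF1 works with KDM2B, which binds unmethylated CpG dinucleotides, and PCGF6 works with MGA and E2F6. In embryonic stem cells many silent developmental genes carry H3K27me3 together with H3K4me3, a mark of promoters.

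Sequence is shown for 5 of the peaks, taken from those with the highest RING1B enrichment of the set or of a class of it. None had RING1B in Pcgf2/4-/- and in neither Pcgf1/2/4-/- list, the outcome of 1466 of the 2629 peaks (55.8%, against 44.3% of all RING1B peaks). Each stretch is the 300 bases around the RING1B summit on the plus strand of the mouse genome build NCBIM37 (mm9), with each CpG in capitals. The first is in the coding exon of Hoxd13 (chr2:74506686-74506985), the second in an intron of Ebf3 (chr7:144504778-144505077) and the third in intergenic sequence beside Otx1 (chr11:21893653-21893952). RING1B was called at these 3 peaks in every knockout list, as at 9.32% of the 2629 (7.76% of all RING1B peaks). The fourth is in an intron of Runx3 (chr4:134708003-134708302) and was not called in Pcgf2/4-/- or Pcgf1/2/4-/-. The fifth, in intergenic sequence (chr13:56360109-56360408), is in the peak with the highest RING1B enrichment among those with no annotated gene start within 2.5 kb, and its nearest gene is Neurog1.
Hoxd13: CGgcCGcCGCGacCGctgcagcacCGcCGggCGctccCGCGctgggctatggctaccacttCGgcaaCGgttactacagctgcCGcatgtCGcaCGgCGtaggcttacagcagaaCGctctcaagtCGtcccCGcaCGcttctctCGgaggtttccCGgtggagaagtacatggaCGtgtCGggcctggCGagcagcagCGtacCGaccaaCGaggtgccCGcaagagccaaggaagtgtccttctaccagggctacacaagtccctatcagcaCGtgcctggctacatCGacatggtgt
Ebf3: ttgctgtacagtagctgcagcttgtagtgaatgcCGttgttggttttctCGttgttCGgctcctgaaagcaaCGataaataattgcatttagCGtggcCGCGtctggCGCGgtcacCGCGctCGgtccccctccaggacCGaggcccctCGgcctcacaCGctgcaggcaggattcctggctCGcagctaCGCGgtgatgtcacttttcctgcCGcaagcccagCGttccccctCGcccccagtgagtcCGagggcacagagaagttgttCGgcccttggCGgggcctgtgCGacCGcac
Otx1: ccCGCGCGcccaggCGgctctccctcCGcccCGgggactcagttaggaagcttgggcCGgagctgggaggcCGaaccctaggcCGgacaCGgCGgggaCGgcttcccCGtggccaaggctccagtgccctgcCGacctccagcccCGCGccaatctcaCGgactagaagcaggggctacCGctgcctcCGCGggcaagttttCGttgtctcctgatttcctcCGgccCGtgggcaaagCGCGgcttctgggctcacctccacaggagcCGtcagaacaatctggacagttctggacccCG
Runx3: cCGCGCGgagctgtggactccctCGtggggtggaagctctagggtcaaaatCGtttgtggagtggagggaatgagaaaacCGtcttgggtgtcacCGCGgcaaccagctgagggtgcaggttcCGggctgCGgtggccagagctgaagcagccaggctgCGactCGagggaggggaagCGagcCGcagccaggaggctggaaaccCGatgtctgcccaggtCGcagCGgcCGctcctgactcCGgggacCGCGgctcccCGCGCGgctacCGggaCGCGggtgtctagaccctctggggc
Neurog1: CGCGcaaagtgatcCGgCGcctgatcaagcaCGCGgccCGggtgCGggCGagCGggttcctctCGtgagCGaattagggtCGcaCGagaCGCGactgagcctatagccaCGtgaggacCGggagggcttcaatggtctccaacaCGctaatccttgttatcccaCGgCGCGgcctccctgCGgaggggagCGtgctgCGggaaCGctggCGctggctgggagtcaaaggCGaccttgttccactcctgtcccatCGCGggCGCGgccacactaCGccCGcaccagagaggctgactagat
CpG dinucleotides numbered 31 in the Hoxd13 stretch, 26 at Ebf3, 27 at Otx1, 27 at Runx3 and 34 beside Neurog1. The peaks as a whole were of this kind. Over the 2629 windows the median was 24 CpG and 65.0% GC, against 11 CpG and 55.3% GC in windows of 300 bases at the starts of 22350 protein-coding genes. A GC content above 50% with an observed-to-expected CpG ratio above 0.6 was found in 81.4% of the peaks, in 75.5% of all RING1B peaks, in 88.2% of those with PCGF1 and in 41.8% of the promoters.

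RING1B enrichment over background, as the authors' peak caller gave it, had a median of 11.8-fold at the peaks with PCGF2 and no PCGF1 (quartiles 9.06 and 16.0, range 4.17 to 33.0). The quartiles were 12.1-fold and 23.7-fold at peaks with PCGF1, and the median was 6.10-fold at the 1854 peaks with none of PCGF1, PCGF2 and PCGF6. Median width was 1437 bp, against 2201 bp with PCGF1 and 1040 bp over all RING1B peaks. Edges of the rule were mild on the PCGF2 side: the smallest overlap with a PCGF2 peak was 74 bp, the median was 882 bp, and 319 RING1B peaks outside the set had a PCGF2 peak within 500 bp that did not touch them. On the PCGF1 side, 32 of the 2629 had a PCGF1 peak within 500 bp and 183 within 5000 bp.

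**Figure D1:**
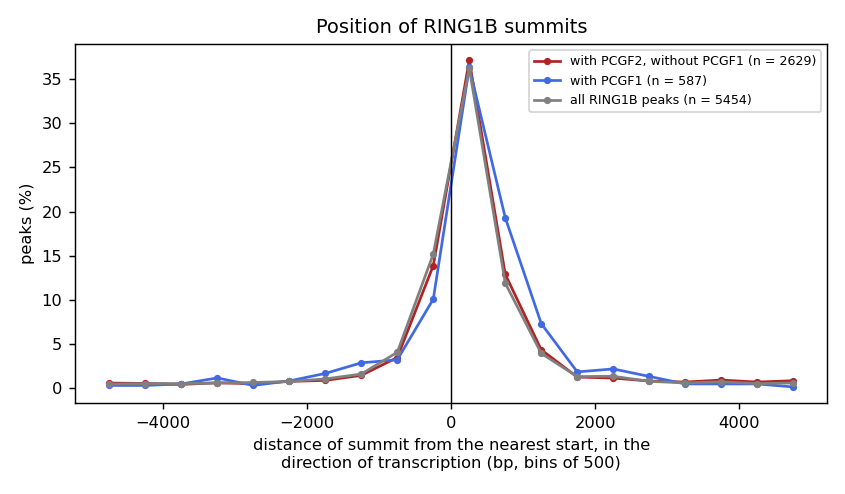
The share of peaks (y axis, %) in bins of 500 bp by the distance of the RING1B summit from the nearest annotated gene start (x axis, bp, positive in the direction of transcription) is drawn for peaks with PCGF2 and no PCGF1, peaks with PCGF1, and all RING1B peaks. The highest point of the first class is 37.1%, in the 500 bp downstream of the start.

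Most of these peaks lay on gene starts. An annotated start was inside 56.3% of them and within 2.5 kb of 80.0%, against 69.2% and 90.1% of peaks with PCGF1 and 49.5% and 79.8% of all RING1B peaks. The summit lay just inside the gene, a median of 228 bp downstream of the start where one was within 2.5 kb (352 bp with PCGF1). The summit was in an intron at 29.8% of the peaks, in a coding exon at 26.2%, in an untranslated region at 18.1%, in an exon of a non-coding transcript at 3.88% and between genes at 22.0%. The 526 peaks with no start within 2.5 kb had a median width of 1362 bp, against 1458 bp near starts, and carried SUZ12 at 99.4% and H3K27me3 at 76.8%, against 98.7% and 69.8%.

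The 10 peaks with the highest RING1B enrichment and a gene start within 2.5 kb were named by gene. In descending order these were Vax1 (33.0-fold), Nr2e1, Hoxd13, Ebf3, Fgfr3, Nkx2-5, Foxb2, Otx1, Emx2 and Htra1 (29.8-fold). Vax1, Hoxd13, Nkx2-5, Otx1 and Emx2 are homeobox transcription factors of the eye, the limb, the heart and the brain, Nr2e1 is a nuclear receptor of neural stem cells, and Ebf3 and Foxb2 are transcription factors of other families. Fgfr3 is a receptor for fibroblast growth factors, and Htra1 is a secreted serine protease. The peak at Vax1 spanned chr19:59241041-59247053 with its summit in the untranslated region, and the widest of the 10 was the one at Otx1, 9082 bp at chr11:21892637-21901718, of which 8400 bp were also under PCGF2. The 2 highest peaks without a start within 2.5 kb lay 5580 bp from Neurog1, a gene for a neuronal basic helix-loop-helix factor, and 18972 bp from Smad5, a gene for a mediator of BMP signalling.

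In wild-type cells the peaks were PRC2 sites. SUZ12 was called at 98.8% of them (89.5% of all RING1B peaks) and H3K27me3 at 71.2% (59.5% of all). H3K4me3 was called at 90.9% (88.2% of all), and 64.6% carried SUZ12, H3K27me3 and H3K4me3 together, against 52.0% of all RING1B peaks and 87.7% of those with PCGF1. H3K36me3, the mark of transcribed gene bodies, was called at 0.380% (0.843% of all) although its list held 60309 peaks, and at 0.799% in Pcgf1-/- (1.19% of all), 0.494% in Pcgf2/4-/- (1.01% of all), 0.799% in Pcgf3/5-/- (1.34% of all) and 0.989% in Pcgf6-/- (1.52% of all). H2AK119Ub1 was called at 17.6% (16.3% of all) and at 49.1% of peaks with PCGF1, from a list of only 1741 peaks. PCGF6 was called at 303 peaks, 11.5% (15.2% of all), and 48.2% of those 303 also carried WDR5, against 4.17% of the peaks without PCGF6. The shares for WDR5 over all RING1B peaks were 58.9% with PCGF6 and 4.13% without.

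The absence of PCGF1 was set by the rule for the wild-type list and held to different degrees in the others. PCGF1 was called in at least 1 line other than wild-type and Pcgf1-/- at 2435 of the 2629 peaks (92.6%, against 82.9% of all RING1B peaks). The share depended on the list: 1.60% in Pcgf3/5-/- (3.39% of all; 214 peaks in the list), 30.7% in Pcgf2/4-/- (26.4% of all; 1845 peaks), 44.3% in Pcgf6-/- (38.2% of all; 3228 peaks), 64.8% in Ezh1/2-/- (50.8% of all; 4150 peaks) and 90.6% in Ring1a-/-_Ring1bfl (80.6% of all; 12735 peaks). It was 0.0380% in Pcgf1-/- (0.202% of all; 15 peaks). Only 194 peaks (7.38%, against 17.1% of all RING1B peaks) had no PCGF1 peak in any list. The number of peaks in a list thus moved with the share, and its part in these differences was not tested.

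PCGF2 itself was called at 81.4% of the peaks in Pcgf1-/- (56.8% of all RING1B peaks), at 69.6% in Pcgf3/5-/- (46.9% of all) and at 95.5% in Pcgf6-/- (84.0% of all). The peaks were chosen for PCGF2 in wild-type, so a share above that of all RING1B peaks is built in. At peaks with PCGF1 the shares were 82.5%, 85.3% and 98.1% in the same order. In Pcgf2/4-/- PCGF2 was called at 1.41% (1.23% of all), which checks the label of that ChIP sample. PCGF2 was called at 0.266% in Ezh1/2-/- cells (0.202% of all), where PCGF1 was called at 64.8%. In Ring1a/b-/- cells PCGF2 was called at 0.342% (0.238% of all) and PCGF1 at 9.32% (9.04% of all), and in the conditional line before deletion at 74.9% (53.5% of all) and 90.6%. PCGF6 was called at 64.2% in Pcgf2/4-/- (60.6% of all; 12842 peaks in the list) and at 36.2% in Pcgf1-/- (36.2% of all; 5528 peaks), against 1868 peaks in the wild-type PCGF6 list and 1.03% of the peaks in Pcgf6-/- (1.58% of all). PCGF3 was rare at the peaks in every list, at 0.685% in wild-type (0.862% of all), 0.380% in Pcgf2/4-/- (0.568% of all) and 1.26% in Pcgf6-/- (2.82% of all).

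**Figure D2:**
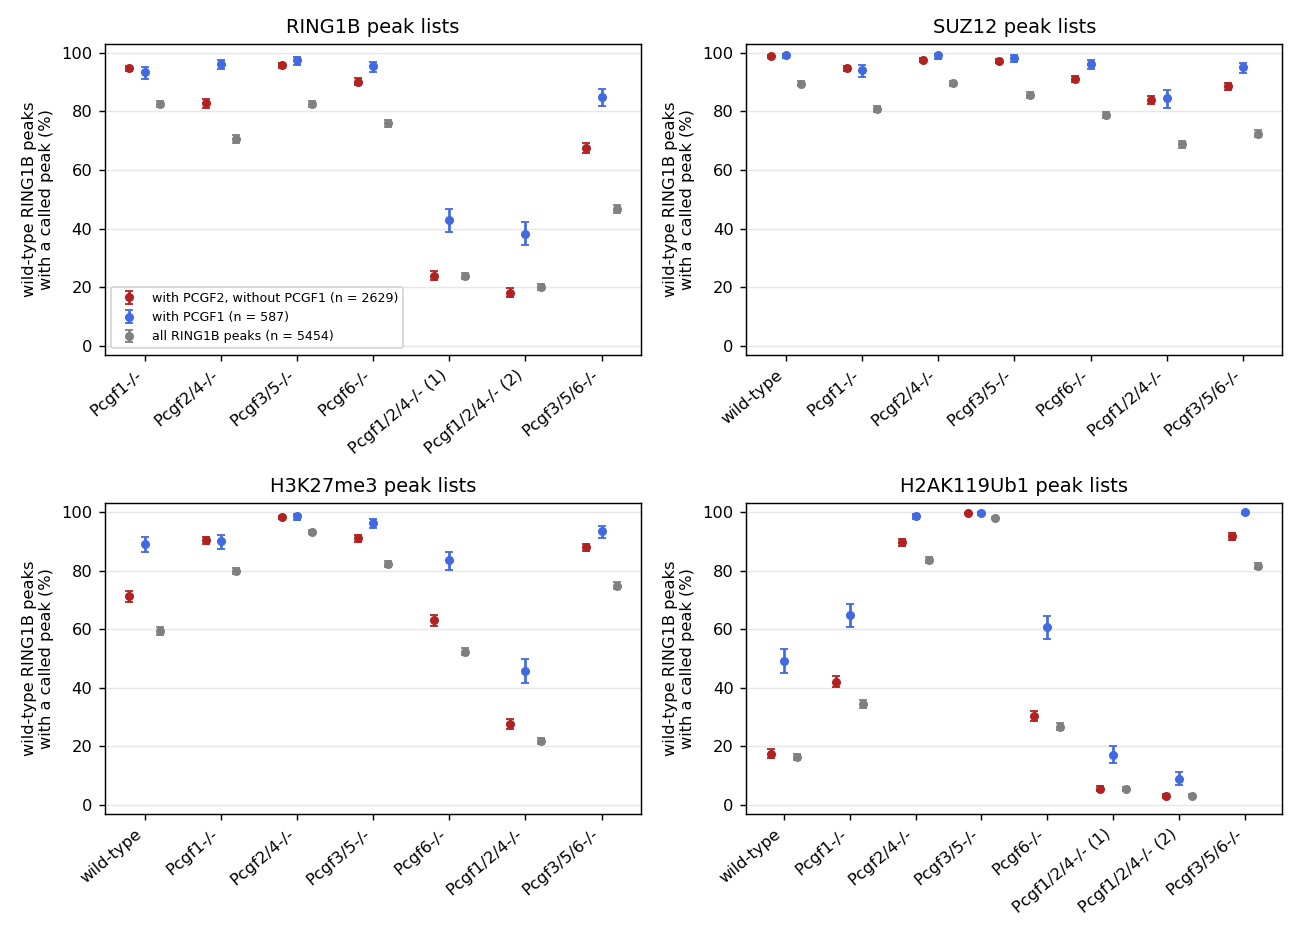
The share of wild-type RING1B peaks (y axis, %) that overlap a peak in each line's list (x axis) is drawn for RING1B, SUZ12, H3K27me3 and H2AK119Ub1, with Wilson 95% intervals that cover counting error only. RING1B calls in Pcgf1/2/4-/- are at 632 and 479 of the 2629 peaks with PCGF2 and no PCGF1, while SUZ12 is called there at 2206. Wild-type RING1B is left out because it is 100% by construction.

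RING1B was called at most of these peaks in Pcgf2/4-/- and at few in Pcgf1/2/4-/-, where the share was near that of all RING1B peaks, which include these. In Pcgf2/4-/- RING1B was called at 2173 of 2629 peaks, 82.7% (Wilson 95% interval 81.2 to 84.1; 70.6% of all RING1B peaks), and in Pcgf1-/- at 94.7% (82.5% of all). The first Pcgf1/2/4-/- list had it at 632 of the 2629 (interval 22.4% to 25.7%; 23.8% of all) and the second at 479 (18.2%; 20.1% of all). Thus 1466 peaks, 55.8% (44.3% of all), had RING1B in Pcgf2/4-/- and in neither Pcgf1/2/4-/- list. For peaks with PCGF1, RING1B was called at 96.3% in Pcgf2/4-/- and at 42.8% and 38.3% in the Pcgf1/2/4-/- lists. The Pcgf2/4-/- list held about as many peaks as the wild-type list (5607), but narrower ones, with a mean width of 853 bp against 1369.6 bp and 4.78 Mb covered against 7.47 Mb. The Pcgf1/2/4-/- lists held 2051 and 1814 peaks. In the remaining lines RING1B was called at 95.7% in Pcgf3/5-/- (82.5% of all), at 90.2% in Pcgf6-/- (75.9% of all) and at 67.5% in Pcgf3/5/6-/- (46.8% of all; 3068 peaks in the list).

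When a call had to cover at least 50% of the wild-type peak, the shares were 62.6% in Pcgf2/4-/- and 7.87% in the first Pcgf1/2/4-/- list, and with a −log10 q of at least 10 for the knockout peak they were 68.5% and 14.5%. At the 194 peaks without PCGF1 in any list, RING1B was called in Pcgf2/4-/- at 52.1% and in the first Pcgf1/2/4-/- list at 15.5%. The matching shares over all RING1B peaks are not given here, so these values do not set the peaks apart from RING1B peaks in general.

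The part of each peak under a RING1B call was also measured. Averaged over the 2629 peaks, with 0 for a peak not called, the calls covered 53.9% of the bases in Pcgf2/4-/- (50.2% over all RING1B peaks), against 84.2% in Pcgf1-/- (72.1% over all), 81.7% in Pcgf3/5-/- (70.0% over all) and 83.5% in Pcgf6-/- (69.7% over all). The lower cover in Pcgf2/4-/- was thus found over all RING1B peaks. At peaks with PCGF1 the cover in Pcgf2/4-/- was 67.4%. Peaks lost in Pcgf2/4-/- and called in each of Pcgf1-/-, Pcgf3/5-/- and Pcgf6-/- numbered 353 (13.4%, against 12.6% of all RING1B peaks and 2.39% of those with PCGF1). The 2 with the highest wild-type enrichment were at Runx3, a gene for a runt-family transcription factor (24.7-fold), and at Vax2os1, a non-coding gene of the Vax2 locus (23.7-fold). Each had SUZ12, H3K27me3 and H3K4me3 in wild-type cells, and RING1B was called at both in Pcgf3/5/6-/-. By contrast each of the 10 highest peaks had RING1B in Pcgf2/4-/-, with 33.9% (Nkx2-5) to 72.9% (Fgfr3) of its bases covered, and 7 of the 10 had it in both Pcgf1/2/4-/- lists. The other 3 were called in 1 of those lists, Nr2e1 and Htra1 in the first and Fgfr3 in the second.

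**Figure D3:**
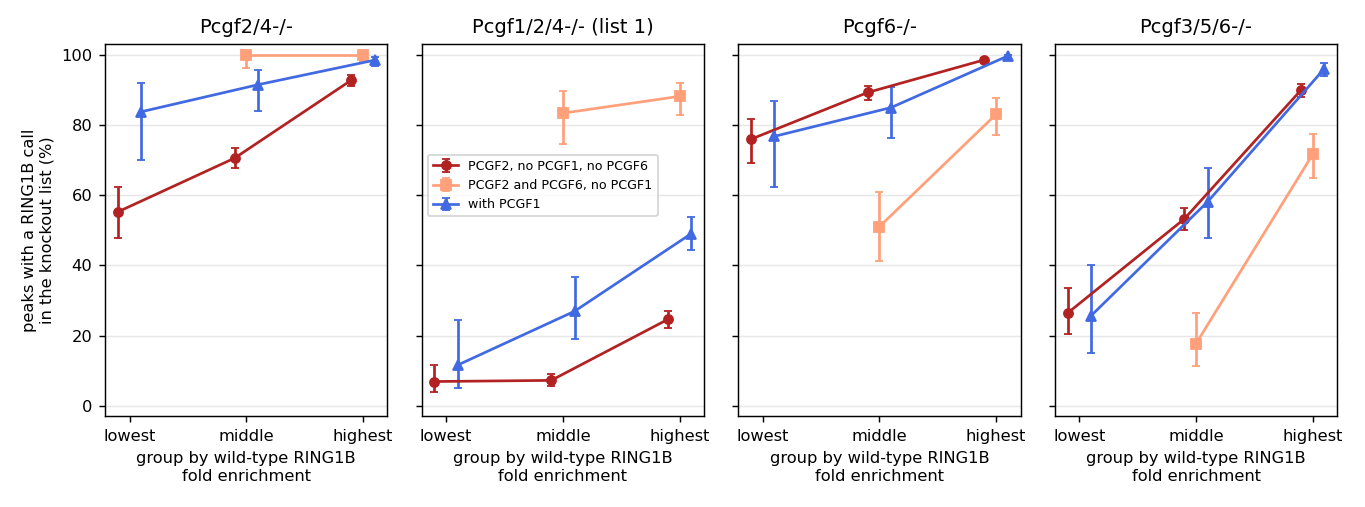
The share of peaks with a RING1B call in the knockout list (y axis, %) is drawn by group of wild-type RING1B fold enrichment (x axis, 3 equal groups of all 5454 peaks) for peaks with PCGF2 alone, peaks with PCGF2 and PCGF6, and peaks with PCGF1, with Wilson 95% intervals; groups of under 20 peaks are left out. In Pcgf2/4-/- the middle group reads 70.5% without PCGF6, 100% with PCGF6 and 91.4% with PCGF1.

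Wild-type enrichment went with the outcome, so the peaks were also compared within 3 groups of it that each hold the same share of all RING1B peaks, bounded at 6.97-fold and 11.7-fold. The low group held 187 of the 2629 peaks, the middle group 1080 and the high group 1362. RING1B was called in Pcgf2/4-/- at 56.7%, 73.1% and 93.8% of these, against 83.7%, 91.4% and 98.4% of peaks with PCGF1. Over all RING1B peaks the shares were 45.4%, 71.3% and 94.8%, so those of the middle and high groups were near the background. The Wilson intervals of the peaks with PCGF2 and no PCGF1 and of those with PCGF1 did not overlap in any of the 3 groups. These intervals cover counting error within 1 sample only, and enrichment was not matched further within any group. Over the whole classes the upper quartile of enrichment was 16.0-fold with PCGF2 and no PCGF1, and 23.7-fold with PCGF1. In Pcgf3/5/6-/- the shares were 24.6%, 50.0% and 87.3%, against 25.6%, 58.1% and 96.0% with PCGF1 (11.7%, 39.4% and 88.9% of all), and the intervals overlapped in the low and middle groups and not in the high group. The 456 peaks without RING1B in Pcgf2/4-/- also had fewer CpG, a median of 17 with 60.0% GC, against 25 and 66.0% at the 2173 with it. By position, RING1B was called there at 71.9% of the 526 peaks with no start within 2.5 kb and at 85.4% of the 2103 with one. The matching values over all RING1B peaks are not given for the splits by CpG and by position. These splits thus do not set the peaks apart from RING1B peaks in general.

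PCGF6 split the set in opposite ways in the 2 kinds of line. Among the 303 peaks with PCGF6 in wild-type cells, RING1B was called in Pcgf2/4-/- at 300 (99.0%; 96.9% of all RING1B peaks with PCGF6) and in both Pcgf1/2/4-/- lists at 229 (75.6%; 76.8% of all with PCGF6). Among the 2326 without PCGF6 the shares were 80.5% (65.9% of all without PCGF6) and 7.14%, or 166 peaks (6.25% of all without). In Pcgf6-/- the order was the other way: RING1B was called at 69.6% of peaks with PCGF6 and 92.9% without (45.8% and 81.2% of all RING1B peaks). In Pcgf3/5/6-/- it was called at 51.5% and 69.6% (34.4% and 49.0% of all). Within the middle group of enrichment the first list of Pcgf1/2/4-/- had RING1B at 83.3% of peaks with PCGF6 and 7.22% without, and Pcgf3/5/6-/- had it at 17.7% and 53.2%. Enrichment was not matched further within that group. Among peaks with PCGF1 the share in Pcgf3/5/6-/- was 87.9% with PCGF6 (interval 81.5 to 92.3) and 83.9% without (80.2 to 87.0), and these intervals overlapped.

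The E-box letters CACGTG, which read the same on both strands, were found in 17.5% of the windows with PCGF6 and in 5.20% of those without. They were in 6.62% of all 2629 windows, against 8.69% of all RING1B windows and 6.81% of those with PCGF1. The share was 30.5% in the 384 windows of RING1B peaks with PCGF6 and neither PCGF1 nor PCGF2, and 7.72% in the promoters. The letters CGCG, a pair of CpG, were in 85.4% of the 2629 windows and 81.2% of all RING1B windows.

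Calls of other PCGF proteins in Pcgf2/4-/- followed the pattern of all RING1B peaks. PCGF1 or PCGF6 was called in that line at 82.1% of the 2173 peaks with RING1B (84.7% over all RING1B peaks) and at 28.1% of the 456 without it (25.9% over all). PCGF1 and PCGF6 were both called at 582 peaks, 22.1% (19.7% of all). RING1B was called at 94.2% of the 806 peaks with PCGF1 in Pcgf2/4-/- and at 77.6% of the 1823 without (92.3% and 62.8% over all RING1B peaks).

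SUZ12, the PRC2 subunit, was called at most of the peaks in every line. It was called at 97.5% of the peaks in Pcgf2/4-/- (89.6% of all RING1B peaks), at 94.7% in Pcgf1-/- (80.8% of all; the RING1B share there was also 94.7%), at 97.3% in Pcgf3/5-/- (85.6% of all), at 91.1% in Pcgf6-/- (78.8% of all), at 88.6% in Pcgf3/5/6-/- (72.4% of all) and at 83.9% in Pcgf1/2/4-/- (68.8% of all). SUZ12 was called at 90.1% of the 456 peaks that had no RING1B in Pcgf2/4-/- (79.2% over all such RING1B peaks). Its share in Pcgf1/2/4-/- was 80.4% of the 1913 peaks with RING1B in neither list (65.7% over all). SUZ12 calls there covered on average 58.8% of a peak's bases, against 91.5% in wild-type and 90.1% in Pcgf2/4-/-. Over all RING1B peaks the cover was 49.5%, 81.7% and 83.5% in the same order, a lower value in Pcgf1/2/4-/- there too.

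The 2 histone marks varied far more between lists, and so did the lengths of the lists. H3K27me3 was called at 90.4% of the peaks in Pcgf1-/- (79.8% of all RING1B peaks), at 98.2% in Pcgf2/4-/- (93.3% of all), at 91.0% in Pcgf3/5-/- (82.4% of all), at 63.1% in Pcgf6-/- (52.4% of all) and at 87.9% in Pcgf3/5/6-/- (74.8% of all). The share was lowest in Pcgf1/2/4-/-, 27.7% (21.9% of all). The Pcgf2/4-/- list held 112110 H3K27me3 peaks and the Pcgf1/2/4-/- list 3918, against 8063 in wild-type. H2AK119Ub1 was called at 42.1% of the peaks in Pcgf1-/- (34.5% of all), at 89.7% in Pcgf2/4-/- (83.5% of all; 121944 peaks in the list), at 99.5% in Pcgf3/5-/- (98.1% of all; 128786 peaks), at 30.4% in Pcgf6-/- (26.7% of all) and at 91.7% in Pcgf3/5/6-/- (81.6% of all; 14353 peaks). The 2 lists of Pcgf1/2/4-/- had it at 5.59% (5.43% of all) and 3.16% (3.19% of all). List length and the mark's share cannot be told apart with 1 sample per line. H3K4me3 was called at 85.9% to 95.1% of the peaks in the 4 lines with a list, Pcgf3/5-/- being the lowest (83.7% of all) and Pcgf6-/- the highest (93.1% of all), with 89.8% in Pcgf1-/- (87.3% of all) and 90.3% in Pcgf2/4-/- (87.8% of all).

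Genes at the peaks were low in wild-type cells more often than genes in general, as were those at peaks with PCGF1. An annotated start within 2.5 kb gave 2166 gene symbols, of which 1867 were matched in the count table, and 140 of these were also at a RING1B peak with PCGF1. In wild-type cells 457 had no count and 1004 averaged below 1 CPM (counts scaled to a common library size), 53.8%, against 52.7% of genes at peaks with PCGF1, 46.2% of those at all RING1B peaks, 37.6% of those at RING1B peaks with neither PCGF1 nor PCGF2, and 41.7% of all genes in the table. Per kilobase of gene length the median wild-type level was 0.191 CPM, against 1.55 CPM for all genes in the table. Genes at peaks without wild-type H3K27me3 had a median of 0.390 CPM per kilobase and those with it 0.126. Library totals were 2147968 to 7848161 counts, with the lowest totals in Pcgf1/2/4-/-, Pcgf3/5/6-/- and the first library of Pcgf2/4-/-. Summed levels of 10 pluripotency markers were 1991 to 4432 CPM in the 14 libraries, with none at 0 in any line, highest in Pcgf1/2/4-/- (4124 and 4432). Summed levels of 8 primitive endoderm markers were lowest in Pcgf1-/- (41.2 and 51.6 CPM) and highest in Pcgf6-/- (at least 114 CPM in each library), with 69.2 and 76.2 CPM in wild-type, and 5 of the 8 are themselves genes at these peaks. Summed levels of 7 fibroblast markers were 10.8 and 15.0 CPM in wild-type, 27.3 and 30.9 in Pcgf6-/- and 35.8 and 38.5 in Pcgf3/5/6-/-. They were 1.68 and 3.19 CPM in Pcgf2/4-/- (3 of the 7 lowered and 1 raised), 1.07 and 1.81 in Pcgf1/2/4-/- (2 lowered), 6.56 and 6.63 in Pcgf1-/- and 13.6 and 18.7 in Pcgf3/5-/-, and their part in the results below was not tested. Col3a1, Postn and Dcn were at 0 in wild-type, Dcn alone was at 0 in Pcgf6-/-, and Gata4, Gata6, Sox17, Foxa2 and Dab2 of the endoderm list were at 0 in wild-type and none of the 8 was in Pcgf6-/-. In cell populations, more cells that express a gene and more RNA per cell cannot be told apart.

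The targeted genes were read first. Pcgf1 was at 66.1 and 61.0 CPM in wild-type, 4.81 and 3.20 in Pcgf1-/- and 0.534 and 0.903 in Pcgf1/2/4-/-. Pcgf6 had no count in Pcgf6-/- but was at 42.0 and 37.2 CPM in the libraries labelled Pcgf3/5/6-/-, against 36.2 and 34.3 in wild-type, so those RNA libraries go by their label below. Of the other genes named in that label, Pcgf3 (log2 fold change -0.23, edgeR adjusted p = 0.448) and Pcgf5 (0.33, edgeR adjusted p = 0.206) did not pass the test there, nor did Pcgf6 (0.17, edgeR adjusted p = 0.338). None of the 3 was thus lowered in the libraries labelled Pcgf3/5/6-/-, every direction given for that line rests on its label, and whether these libraries carry the labelled edits was not tested. Pcgf1, which that label does not name, fell there to 25.9 and 33.5 CPM (log2 fold change -1.10 ± 0.16, edgeR adjusted p = 6.25e-05). Bmi1 fell there too (-0.56 ± 0.21, edgeR adjusted p = 0.0399), and Pcgf2 did not pass (-0.27, edgeR adjusted p = 0.121). Pcgf5 fell in Pcgf3/5-/- (log2 fold change -1.22 ± 0.23, edgeR adjusted p = 0.00175), and it also fell in Pcgf1-/- (-1.28) and Pcgf2/4-/- (-1.17), where it is not targeted. Pcgf2 and Bmi1 (PCGF4) in Pcgf2/4-/- and Pcgf1/2/4-/-, and Pcgf3 in Pcgf3/5-/-, did not pass the test for a change in RNA. An edit that shifts a reading frame need not remove the RNA.

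**Figure D4:**
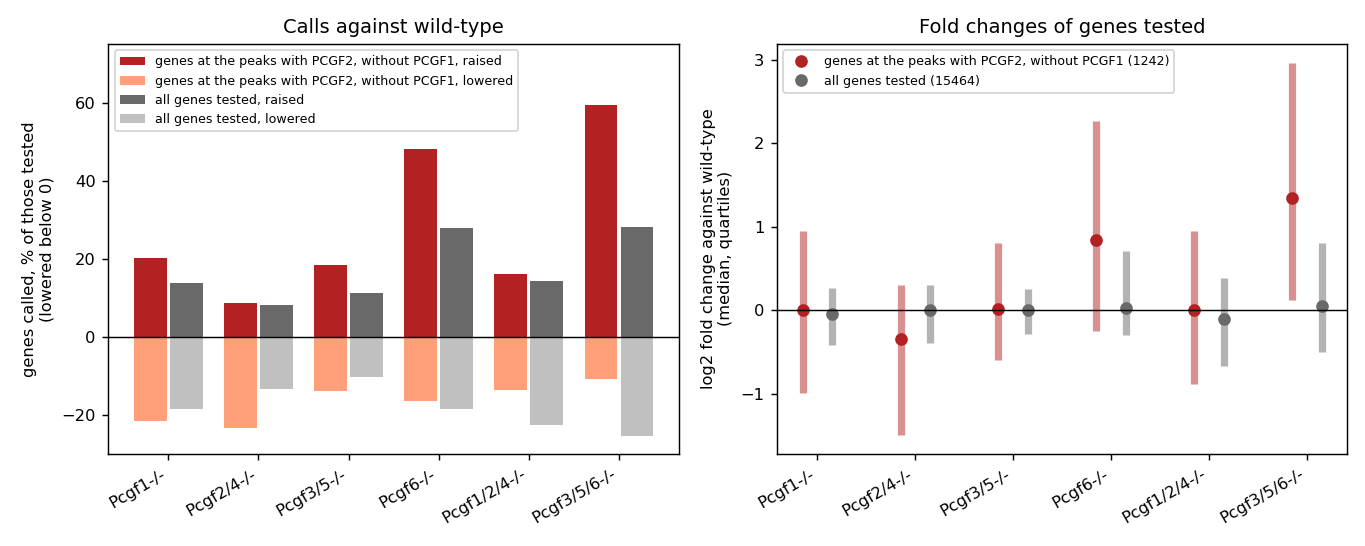
The left panel shows the share of tested genes called raised (above 0) or lowered (below 0) against wild-type in each line (y axis, %), for genes at peaks with PCGF2 and no PCGF1 and for all genes tested. The right panel shows the median and quartiles of log2 fold change for the same genes, where Pcgf3/5/6-/- has the highest median, 1.34.

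Of the 1867 genes, 1242 passed a filter on low counts and were tested in all 6 lines (edgeR's quasi-likelihood test, Benjamini-Hochberg adjusted p below 0.05 over 15464 genes). The rest include many silent genes, so counts are over tested genes only and are read against the share of all tested genes. In Pcgf3/5/6-/- 736 were raised (59.3%, against 28.0% of all genes tested) and 133 lowered (10.7%, against 25.3%). In Pcgf6-/- 597 were raised (48.1%, against 27.8%) and 204 lowered (16.4%, against 18.6%). Pcgf2/4-/- stood the other way, with 108 raised (8.70%, against 8.10%) and 290 lowered (23.3%, against 13.5%). Among the triple lines, Pcgf1/2/4-/- had 201 raised (16.2%, against 14.4%) and 169 lowered (13.6%, against 22.6%). In Pcgf1-/- 250 were raised (20.1%, against 13.9%) and 269 lowered (21.7%, against 18.4%), and in Pcgf3/5-/- 229 were raised (18.4%, against 11.1%) and 171 lowered (13.8%, against 10.4%). Genes at all RING1B peaks, which include these, gave nearly the same shares: 55.8% raised and 11.7% lowered in Pcgf3/5/6-/-, 46.2% and 16.5% in Pcgf6-/-, 8.62% and 592 of 2470 genes in Pcgf2/4-/-, 15.3% and 16.9% in Pcgf1/2/4-/-, 20.8% and 20.8% in Pcgf1-/-, and 18.6% and 13.6% in Pcgf3/5-/-. At RING1B peaks with neither PCGF1 nor PCGF2, 52.7% were raised in Pcgf3/5/6-/-, so the contrast with all genes is not particular to the peaks with PCGF2 and no PCGF1. The 6 comparisons share the 2 wild-type libraries. The filter ran over all 7 groups, so a gene low in wild-type could be tested because another line was high. Such a gene can hardly be called lowered. Of the 1242 genes, 396 were below 1 CPM in wild-type. In Pcgf3/5/6-/- 325 of these 396 were raised and 1 lowered, against 411 raised and 132 lowered of the others. In Pcgf6-/- the counts were 254 and 13, against 343 and 191. The part of the filter in these shares was not tested. Only 52 of the 1242 were called in no line, 987 were raised in at least 1 and 600 lowered in at least 1.

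Median log2 fold changes of the 1242 genes were 1.34 in Pcgf3/5/6-/-, 0.84 in Pcgf6-/-, -0.34 in Pcgf2/4-/-, 0.01 in Pcgf3/5-/- and 0.00 in Pcgf1-/- and Pcgf1/2/4-/-. Over all genes tested they were 0.05, 0.03, 0.00, 0.00, -0.05 and -0.11 in the same order. With genes that had no count in a group set at their bound, the medians became 1.32, 0.85, -0.37, 0.04, -0.02 and -0.00. An intensity-dependent (loess) scaling lowered the medians to 0.68 in Pcgf3/5/6-/- and 0.28 in Pcgf6-/- and moved that of Pcgf2/4-/- to -0.22. For Pcgf1/2/4-/- the same scaling moved the median of all genes by 0.261 and that of the genes at the peaks to 0.18. The share of called genes that were raised moved with it, from 27.1% to 37.5% in Pcgf2/4-/-, from 74.5% to 58.6% in Pcgf6-/-, from 54.3% to 68.6% in Pcgf1/2/4-/- (64.6% by DESeq2) and from 84.7% to 73.9% in Pcgf3/5/6-/-. Single libraries also moved some counts by more than 1.5 times. The 519 called in Pcgf1-/- became 297 without its first library and 341 without the second wild-type library, and the 398 in Pcgf2/4-/- became 253 without the first wild-type library and 183 when wild-type and Pcgf2/4-/- were fitted by themselves. The 400 in Pcgf3/5-/- became 206 without its first library and 231 or 207 without the first or second wild-type library, and the 370 in Pcgf1/2/4-/- became 206 or 188 without its first or second library.

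Tested genes were split by whether their peak had RING1B in the same line. In Pcgf3/5/6-/- 362 of 538 at peaks without RING1B were raised (67.3%) and 406 of 750 at peaks with it (54.1%). In Pcgf6-/- the counts were 115 of 202 (56.9%) and 493 of 1053 (46.8%), in Pcgf1-/- 27 of 82 (32.9%) and 228 of 1177 (19.4%), and in Pcgf3/5-/- 14 of 67 (20.9%) and 218 of 1189 (18.3%). In Pcgf2/4-/- 24 of 177 were raised (13.6%) and 38 lowered (21.5%) at peaks without RING1B, and 98 of 1125 raised (8.71%) and 263 lowered (23.4%) where it was called. In Pcgf1/2/4-/- 150 of 881 were raised (17.0%) at peaks with RING1B in neither list and 34 of 237 (14.3%) at peaks with it in both. A gene with more than 1 peak can stand in both groups, and these differences were not tested. Wild-type level differed as well: genes at peaks without RING1B in Pcgf3/5/6-/- had a median of 2.27 CPM in wild-type and the others 0.494 CPM. The medians were 4.96 and 0.636 CPM for the split in Pcgf6-/- and 5.91 and 0.710 CPM for that in Pcgf1-/-, and nearer each other, 0.708 and 0.779 CPM, for that in Pcgf2/4-/-. The part of this level in the shares was not tested.

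Hox genes, which set position along the body axis, were the family most covered by the peaks. At least 1 peak stood at 30 of the 39 Hox genes in the table, and 13 of these were tested. The filter ran over all 7 groups, so a gene near 0 in wild-type, such as Hoxd13, could enter through a line where it was high. Such a gene can hardly fall, and the part of the filter in the counts of this family and those below was not tested. In Pcgf2/4-/- 8 of the 13 rose and none fell, in Pcgf1/2/4-/- 9 rose and none fell, and in Pcgf1-/- 9 rose and Hoxd10 fell. In Pcgf6-/- none rose and 6 fell, and in Pcgf3/5/6-/- Hoxb1 rose and 6 fell. In Pcgf3/5-/- only Hoxd10 passed the test, downwards. Of the 1242 tested genes at the peaks, 8.70% rose in Pcgf2/4-/-, 16.2% in Pcgf1/2/4-/- and 20.1% in Pcgf1-/-. Over all genes tested the shares were 8.10%, 14.4% and 13.9%. In Pcgf6-/- 16.4% of the 1242 fell, and in Pcgf3/5/6-/- 10.7% (18.6% and 25.3% of all genes tested). The median log2 fold change of the 13 was 1.56 in Pcgf2/4-/-, 1.75 in Pcgf1/2/4-/-, 1.04 in Pcgf1-/-, -1.56 in Pcgf6-/- and -1.82 in Pcgf3/5/6-/-, beside the medians of all genes given above. Hoxa9, a posterior gene of the A cluster (chromosome 6), was at 1.57 and 0.985 CPM in wild-type. It was at 20.5 CPM in the lower of the Pcgf2/4-/- libraries, 17.1 and 17.2 in Pcgf1/2/4-/- and 11.6 and 10.1 in Pcgf1-/-, all above both wild-type libraries. Its log2 fold changes there were 4.13 ± 0.40 (SE; edgeR adjusted p = 1.58e-05), 3.72 ± 0.47 (edgeR adjusted p = 5.31e-05) and 3.08 ± 0.43 (edgeR adjusted p = 1.06e-04). In the other 3 lines Hoxa9 was between 0.338 and 1.90 CPM and its libraries overlapped those of wild-type.

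Hoxd13, whose sequence is shown above, had no count in wild-type, Pcgf2/4-/-, Pcgf3/5-/- or Pcgf6-/-. It was at 0.765 and 0.686 CPM in Pcgf1-/- and at 5.87 and 5.42 CPM in Pcgf1/2/4-/-. Against a floor of 3 counts over the 2 wild-type libraries this is at least 26.5-fold higher in Pcgf1/2/4-/- (edgeR adjusted p = 5.43e-05) and at least 3.48-fold higher in Pcgf1-/- (edgeR adjusted p = 0.00553). Hoxc9 was at 0.285 and 0.985 CPM in wild-type and 3.77 and 6.01 CPM in Pcgf2/4-/-, a log2 fold change of 3.03 ± 0.53 (edgeR adjusted p = 0.00123). Its Pcgf1/2/4-/- libraries, 3.20 and 1.35 CPM, did not pass (edgeR adjusted p = 0.111).

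Other homeobox and Pax genes are regulators of brain, limb and organ identity. Peaks stood at 76 of the 114 in the table, and 34 of these were tested. In Pcgf6-/- 13 rose and Gbx2 and Otx2 fell, in Pcgf3/5/6-/- 14 rose and 4 fell, and in Pcgf1/2/4-/- 13 rose and 3 fell (median log2 fold changes 1.11, 1.72 and 1.49). In Pcgf2/4-/- 5 rose and 6 fell, in Pcgf1-/- 7 rose and 8 fell, and in Pcgf3/5-/- 5 rose and 8 fell. Of the 1242 genes 48.1% rose in Pcgf6-/-, 59.3% in Pcgf3/5/6-/- and 16.2% in Pcgf1/2/4-/- (27.8%, 28.0% and 14.4% of all genes tested). Lowered were 23.3% in Pcgf2/4-/-, 21.7% in Pcgf1-/- and 13.8% in Pcgf3/5-/- (13.5%, 18.4% and 10.4% of all). Otx1, a head homeobox gene, was at 0.856 and 1.13 CPM in wild-type, at 3.77 and 5.37 in Pcgf2/4-/- and at 4.27 and 11.3 in Pcgf1/2/4-/-. Both lines stood above wild-type in every library (log2 fold change 2.29 ± 0.46, edgeR adjusted p = 0.00321, and 2.99 ± 0.50, edgeR adjusted p = 5.33e-04). Pax3, a regulator of neural crest and muscle precursors, had no count in wild-type and was at 4.19 and 6.26 CPM in Pcgf2/4-/-, at least 27.2-fold higher (edgeR adjusted p = 6.86e-05). Pax3 was at 0.534 and 0.452 CPM in Pcgf1/2/4-/- and did not pass (edgeR adjusted p = 0.0869). Pax8, a regulator of thyroid and kidney, had no count in wild-type, Pcgf1-/-, Pcgf2/4-/-, Pcgf3/5-/- or Pcgf1/2/4-/-. It was at 12.3 and 11.8 CPM in Pcgf6-/-, at least 56.9-fold higher (edgeR adjusted p = 4.48e-06), and at 6.00 and 3.72 CPM in Pcgf3/5/6-/-, at least 23.1-fold higher (edgeR adjusted p = 1.07e-04).

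Lmx1a, a LIM homeobox gene of the midbrain, moved in both directions. It was at 4.71 and 4.92 CPM in wild-type, at 122.0 and 125.0 in Pcgf6-/- and at 52.8 and 54.7 in Pcgf3/5/6-/-. It was lower in the other 4 lines, at 0.267 and 0.192 CPM in Pcgf3/5-/-, 0.547 and 0 in Pcgf1-/-, 0.419 and 0.767 in Pcgf2/4-/- and 1.07 and 0 in Pcgf1/2/4-/-. The libraries of the 2 lines in which it rose lay above wild-type (log2 fold change 4.68 ± 0.20, edgeR adjusted p = 6.45e-10, and 3.47 ± 0.22, edgeR adjusted p = 2.22e-08). With 3 counts in Pcgf3/5-/-, the level there was 20.4-fold lower (counting interval 6.69 to 101; edgeR adjusted p = 8.20e-05).

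Of the 8 T-box genes tested, 6 rose in Pcgf1/2/4-/- and T fell, and 2 rose and 4 fell in Pcgf2/4-/-. Of the 1242 genes at the peaks 16.2% rose and 13.6% fell in Pcgf1/2/4-/- (14.4% and 22.6% of all genes tested). In Pcgf2/4-/- 8.70% rose and 23.3% fell (8.10% and 13.5% of all). T (brachyury), the T-box gene of the primitive streak, was at 36.2 and 30.0 CPM in wild-type and lower in every line. It was at 8.74 and 5.72 CPM in Pcgf1-/-, 10.9 and 14.2 in Pcgf2/4-/-, 11.8 and 8.25 in Pcgf3/5-/-, 6.64 and 5.75 in Pcgf3/5/6-/-, 1.60 and 2.26 in Pcgf1/2/4-/- and 0.622 and 1.23 in Pcgf6-/-. The log2 fold change was from -1.34 ± 0.23 in Pcgf2/4-/- (edgeR adjusted p = 0.00102) to -5.17 ± 0.33 in Pcgf6-/- (edgeR adjusted p = 1.97e-08), and no knockout library overlapped wild-type. Tbx15, another T-box gene, was at 3.85 and 3.66 CPM in wild-type, had no count in Pcgf1-/- or Pcgf6-/- (at least 16.9-fold and 18.2-fold lower) and was at 9.08 and 9.48 CPM in Pcgf1/2/4-/- (log2 fold change 1.30 ± 0.38, edgeR adjusted p = 0.0183).

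Signalling and neuronal families are given by their counts in each line, and differences between lines were not tested. In Pcgf3/5/6-/- 59.3% of the 1242 genes rose and 10.7% fell (28.0% and 25.3% of all genes tested). In Pcgf6-/- 48.1% rose and 16.4% fell (27.8% and 18.6% of all). In Pcgf2/4-/- 8.70% rose and 23.3% fell (8.10% and 13.5% of all), and in Pcgf1-/- 20.1% and 21.7% (13.9% and 18.4% of all). Whether any family departs from these shares was not tested. Of 13 Wnt pathway genes tested, 11 rose and 2 fell in Pcgf3/5/6-/-, 5 rose and 3 fell in Pcgf6-/- (median log2 fold change 0.00), 4 rose and 3 fell in Pcgf1-/- (0.53), and 1 rose and 2 fell in Pcgf2/4-/-. Of 19 axon guidance genes 14 rose and Epha7 fell in Pcgf3/5/6-/-, 10 rose and Epha7 fell in Pcgf6-/-, and in Pcgf2/4-/- 2 rose and 7 fell. Of 30 ion channel genes 19 rose and 2 fell in Pcgf3/5/6-/-, 14 rose and 4 fell in Pcgf6-/-, and 3 rose and 8 fell in Pcgf2/4-/-. The medians in Pcgf3/5/6-/- were 2.17, 1.96 and 1.47 for these 3 lists. Of 6 TGF-beta and BMP genes 4 rose in Pcgf3/5/6-/-, and of 5 FGF genes 3 rose there, none passed the test in Pcgf6-/-, and Fgf13, Fgf10 and Fgf15 fell in Pcgf2/4-/-. Of 9 genes with receptor stems 7 rose in Pcgf3/5/6-/-, and 2 of the 9 (Htra1 and Htra3) are proteases taken by the letters of their symbols. The smaller lists gave 4 of 8 Sox genes raised and 2 lowered in Pcgf3/5/6-/-, 3 of 5 forkhead genes raised and Foxd3 lowered, 5 of 10 basic helix-loop-helix genes raised and 2 lowered, 2 of 2 Gata genes raised, 4 of 8 zinc finger regulators raised and 2 lowered, and 2 of 9 cadherin genes raised and 3 lowered. Among 5 genes for Polycomb proteins at the peaks, Kdm2b fell in Pcgf1-/-, Pcgf3/5-/-, Pcgf6-/-, Pcgf1/2/4-/- and Pcgf3/5/6-/-, and Cbx8 rose in Pcgf2/4-/-, Pcgf6-/-, Pcgf1/2/4-/- and Pcgf3/5/6-/-. Of the hedgehog list only Gli3 was at a peak, and it fell in Pcgf1-/-, Pcgf2/4-/- and Pcgf1/2/4-/-.

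**Figure D5:**
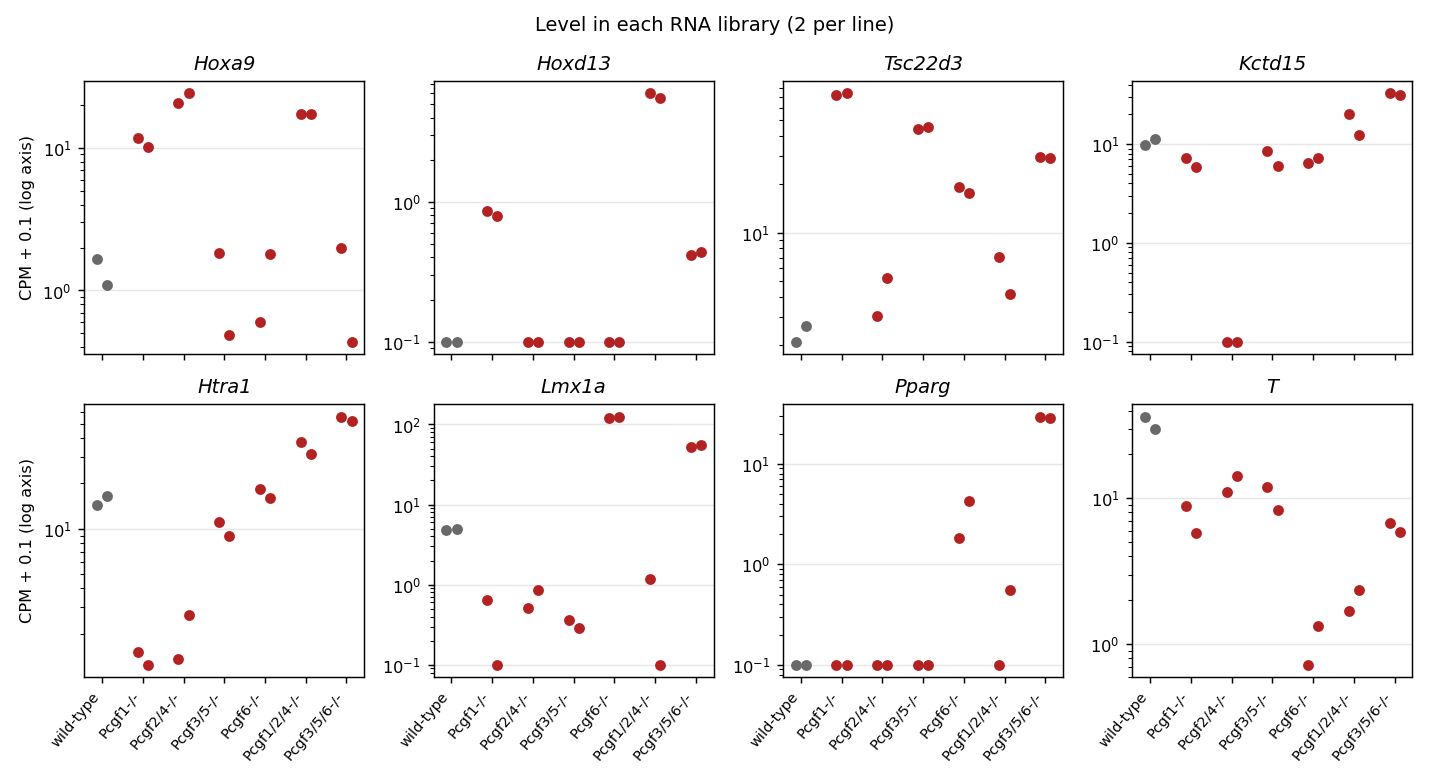
Each panel shows 1 gene at a peak with PCGF2 and no PCGF1, with the level in each of the 14 RNA libraries as CPM plus 0.1 on a log axis (y) by line (x, 2 libraries each, wild-type in grey). Pparg reads 29.4 and 28.7 CPM in Pcgf3/5/6-/- and no count in wild-type, and T is lower in all 12 knockout libraries than in wild-type.

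The largest rises differed by line. In Pcgf3/5/6-/- they were at Pparg, the adipocyte nuclear receptor, Csf1, a macrophage growth factor, Wscd1 and Egr1, an immediate-early transcription factor. Pparg had no count in wild-type and was at 29.4 and 28.7 CPM in Pcgf3/5/6-/- (at least 137-fold higher, edgeR adjusted p = 1.33e-06) and at 1.74 and 4.14 CPM in Pcgf6-/- (at least 13.3-fold higher, edgeR adjusted p = 6.57e-04). Csf1 was at 19.3 and 16.6 CPM, Wscd1 at 20.5 and 24.7, and Egr1 had 95 counts over both libraries (19.3 CPM in the higher), from 0 in wild-type (at least 84.5-fold, 106-fold and 73.0-fold higher). In Pcgf6-/- the largest rises were at Nell2, a secreted neuronal protein (17.2 and 19.8 CPM, at least 86.3-fold), Pax8, Fos, an AP-1 subunit, and Bend6 (7.59 and 7.35 CPM, at least 35.2-fold). Fos had 1 count over both wild-type libraries and was at 32.7 and 27.9 CPM in Pcgf6-/-, 432-fold higher with a counting interval of 77.1 to 17082 (edgeR adjusted p = 8.31e-09).

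In Pcgf1/2/4-/- Nrn1, which codes for the neuronal protein neuritin, was at 7.47 and 6.77 CPM (at least 33.4-fold higher) and Esrp1, an epithelial splicing regulator, at 6.94 and 3.61 (at least 24.2-fold higher), both from 0 in wild-type. In Pcgf1-/- the genes with large rises included Hes2, a repressor of the Hes family, Atf3, a stress-response factor, and Tsc22d3, a glucocorticoid-induced protein. Tsc22d3 went from 2.00 and 2.53 CPM in wild-type to 72.3 and 73.6 in Pcgf1-/- (log2 fold change 4.99 ± 0.20, edgeR adjusted p = 5.31e-09) and 44.0 and 45.3 in Pcgf3/5-/- (4.28 ± 0.20, edgeR adjusted p = 2.08e-08). Atf3 went from 1.43 and 1.41 CPM to 54.0 and 48.5 in Pcgf1-/- (5.16 ± 0.24, edgeR adjusted p = 9.21e-09). Hes2 had 2 counts in wild-type and was at 9.40 and 5.03 CPM in Pcgf1-/-, 56.4-fold higher with a counting interval of 15.2 to 471. In Pcgf3/5-/- Adora2a, an adenosine receptor, was at 5.08 and 4.22 CPM against 0.143 and 0.281 (22.2-fold, counting interval 7.25 to 111), and Tnfsf11, the cytokine RANKL, at 8.02 and 6.90 against 0.571 and 0.141 (log2 fold change 4.32 ± 0.50, edgeR adjusted p = 8.91e-05).

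Genes lowered in Pcgf2/4-/- included several with no count left. Kctd15, a BTB-domain protein that restrains neural crest formation, was at 9.70 and 11.1 CPM in wild-type and 0 in both Pcgf2/4-/- libraries (at least 35.4-fold lower, edgeR adjusted p = 1.39e-05), and was at 32.5 and 31.4 CPM in Pcgf3/5/6-/- (edgeR adjusted p = 5.57e-05). Evc, a ciliary protein of hedgehog signalling, was at 5.14 and 5.06 CPM in wild-type and 0 in Pcgf2/4-/- (at least 17.4-fold lower), and Rasl10a, a small GTPase, at 4.00 and 4.22 and 0 (58 counts over the wild-type libraries). These 3 genes were not at 0 in Pcgf1/2/4-/-: Kctd15 was at 20.3 and 12.2 CPM, Evc at 1.07 and 3.61 and Rasl10a at 7.47 and 10.4. Hpcal4, a neuronal calcium sensor, had no count in Pcgf1-/- or Pcgf2/4-/- and 1 count in Pcgf1/2/4-/-, against 3.57 and 4.50 CPM in wild-type (at least 18.2-fold and 13.7-fold lower, and 16.5-fold lower with a counting interval of 2.85 to 663).

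Among the remaining genes with the largest losses, Tgfbi, a matrix protein, and Npy, neuropeptide Y, had 1 count each in Pcgf1-/-, against 7.42 and 8.58 CPM and 6.42 and 7.03 CPM in wild-type. These were 108-fold (counting interval 19.0 to 4312) and 91.0-fold (15.9 to 3631) lower. Tgfbi also fell in Pcgf6-/- (log2 fold change -1.21) and Pcgf1/2/4-/- (-2.02) and rose in Pcgf3/5/6-/- (0.78). Npy also fell in Pcgf2/4-/- (-2.30), Pcgf3/5-/- (-3.07) and Pcgf1/2/4-/- (-2.44) and rose in Pcgf6-/- (0.92). Runx1, a runt-family factor of blood development, had 1 count in Pcgf3/5-/- against 3.57 and 5.49 CPM (57.5-fold lower, counting interval 9.97 to 2308). It also fell in Pcgf1-/- (log2 fold change -3.30), Pcgf2/4-/- (-3.15) and Pcgf1/2/4-/- (-2.18) and rose in Pcgf6-/- (1.09). Limch1, an actomyosin regulator, was at 0.936 and 1.15 CPM in Pcgf3/5-/- against 18.8 and 19.7 (log2 fold change -4.20 ± 0.25, edgeR adjusted p = 1.27e-07). Its largest fall was in Pcgf1-/- (0.656 and 0.229 CPM, -5.16 ± 0.28). Limch1 also fell in Pcgf2/4-/- (-1.25) and Pcgf1/2/4-/- (-1.34) and rose in Pcgf6-/- (2.01) and Pcgf3/5/6-/- (1.09). Sp5, a Wnt-responsive transcription factor, had 1 count in Pcgf6-/- and 1 in Pcgf3/5/6-/- against 9.70 and 9.14 CPM (137-fold lower, counting interval 24.2 to 5458, and 57.7-fold lower, 10.2 to 2296). Trim47, a ubiquitin ligase, had no count in Pcgf6-/- against 3.28 and 4.22 CPM (at least 18.2-fold lower). In Pcgf3/5/6-/- Tfap2a, a factor of neural crest and surface ectoderm, was at 2.21 and 1.01 CPM against 40.8 and 43.7 (log2 fold change -4.68 ± 0.28, edgeR adjusted p = 1.47e-08), and Fst, the activin antagonist follistatin, at 0.632 and 1.01 against 15.8 and 15.9 (-4.24 ± 0.36, edgeR adjusted p = 4.34e-07). Edil3, an integrin ligand, had no count in Pcgf3/5/6-/- against 3.71 and 3.66 CPM (at least 7.52-fold lower). Dpp6, a potassium channel subunit, was at 2.67 and 0.903 CPM in Pcgf1/2/4-/- against 18.3 and 14.9 (-3.26 ± 0.49, edgeR adjusted p = 2.12e-04). Arg2, an arginase, had 2 counts in Pcgf1/2/4-/- against 4.71 and 5.34 CPM in wild-type (10.3-fold lower, counting interval 2.74 to 86.5), while it was at 98.1 and 92.7 in Pcgf6-/- (4.24 ± 0.16, edgeR adjusted p = 3.01e-10). Arg2 also fell in Pcgf1-/- (log2 fold change -3.44) and Pcgf3/5-/- (-3.90) and rose in Pcgf3/5/6-/- (3.89).

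The 10 highest peaks held the starts of 12 genes, of which 6 reached at most 2.03 CPM in any library. Vax1 and Foxb2 had at most 0.109 CPM in any library. Nr2e1 was between 0 and 0.460 CPM, Ebf3 and Emx2 were seen only in Pcgf6-/- and Pcgf3/5/6-/- (at most 2.03 and 0.766 CPM), and Nkx2-5 reached 1.26 and 1.35 CPM in Pcgf3/5/6-/- and at most 0.534 elsewhere. These 6 genes were too low to test. Their neighbours Ostm1, a lysosomal protein gene whose start is shared with the Nr2e1 peak, and Emx2os, a non-coding gene beside Emx2, were at 155.0 and 154.0 CPM and at 1.43 and 1.83 CPM in wild-type. Ostm1 fell in Pcgf3/5/6-/- (95.1 and 92.9 CPM, log2 fold change -0.71 ± 0.13, edgeR adjusted p = 4.95e-04), and reads of neighbours on opposite strands cannot be told apart where they overlap, since the strand used in counting is not given in the sources used here. Htra1 was at 14.3 and 16.5 CPM in wild-type, 1.42 and 1.14 in Pcgf1-/- (log2 fold change -3.51 ± 0.28, edgeR adjusted p = 9.76e-07) and 1.26 and 2.56 in Pcgf2/4-/- (-2.78 ± 0.27, edgeR adjusted p = 1.71e-05). In Pcgf1/2/4-/-, with both sets of genes edited, Htra1 was at 37.9 and 31.2 CPM, above wild-type (1.16 ± 0.20, edgeR adjusted p = 5.21e-04), and in Pcgf3/5/6-/- at 55.6 and 51.7 (1.80 ± 0.18, edgeR adjusted p = 1.59e-06). Fgfr3, at 9.27 and 8.02 CPM in wild-type, passed the test only in Pcgf3/5/6-/- (13.6 and 21.6 CPM, log2 fold change 1.02 ± 0.23, edgeR adjusted p = 0.00190).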

How the data were processed

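ChIP-seq peaks and RNA-seq counts were taken as deposited. Per the submitters' processing notes, tools included bcl2fastq 2, Bowtie 1.2.2, TopHat2 2.1.1, Picard 1.62, HTSeq 0.7.2, MACS2 2.1.1 and DESeq2 3.7, and the build was mm9. The histone ChIP used Drosophila spike-in chromatin, per the labels, and no label says whether the lists were scaled by it. The deposited lists give fold enrichment, a ratio over background computed by the authors' peak caller, and −log10 p and q values of each peak by the authors, 1 sample per list. The depth of the ChIP samples is unknown. The RNA file holds the authors' counts of reads per gene, not normalized, 23377 genes in 14 libraries.

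Overlap of at least 1 bp counted as shared, and 72 lists were used with Python 3.11.15, pandas 2.3.3, numpy 2.4.6, scipy 1.17.1 and matplotlib 3.10.9. Wilson 95% intervals cover counting error only. Lists with 1 sample per line allow no test between lines. Sequences, starts and gene lengths came from the reference NCBIM37 genome and its annotation. Genes with a start within 2.5 kb of a peak were matched by symbol. Counts were tested with edgeR 4.0.16 in R 4.3.3 (quasi-likelihood, TMM, filterByExpr keeping 15464 genes, all 7 groups in 1 fit, Benjamini-Hochberg adjusted p below 0.05). DESeq2 1.42.0, other scalings, filters, peak thresholds and left-out libraries were alternatives. CPM values are counts scaled to TMM library sizes. Where a group had no count, a fold is a bound against a floor of 3 counts over its 2 libraries.

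Named peaks were the 10 with the highest RING1B enrichment and a start within 2.5 kb, and the 2 highest in each of 3 classes (called in Pcgf2/4-/-, not called there, no start within 2.5 kb). Named genes were, per line and direction, the 4 called genes with the largest log2 fold change, a mean log2 CPM of at least 2 in the higher group and libraries that did not overlap those of wild-type, with the genes of the 10 peaks and the targeted genes. 1 gene that the rule names is not reported here. Other genes are named from the family lists, taken by symbol stem. The members, rules and lists were chosen with earlier results of these data known. On simulated counts for Pcgf2/4-/- over 14442 genes, the fit recovered 82% of genes changed by 1 on the log2 scale and 100% of those changed by 2, and called 0.02809% of unchanged genes. The changed genes were drawn only from genes of higher level, and all genes were given the same spread. Genes at the peaks had a wild-type median of 0.781 CPM, so these rates do not hold for many of them.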

Additional observations from a re-analysis of the deposited data

How the results depend on the processing

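Shares moved with the definition of a peak, and the cause was not tested. The matching shares over all RING1B peaks are not given for these alternatives. The order of the values below is Pcgf1-/-, Pcgf2/4-/-, Pcgf3/5-/-, Pcgf6-/-, Pcgf1/2/4-/- and Pcgf3/5/6-/-. With knockout peaks limited to a −log10 q of at least 10, RING1B was called at 92.1, 68.5, 91.5, 87.0, 14.5 and 58.3% of members. With at least 50% of the wild-type peak covered, RING1B was called at 91.0, 62.6, 91.1, 87.4, 7.87 and 53.5% of members. With members chosen by overlap of at least 50% of the RING1B peak, RING1B was called at 96.7, 89.3, 98.1, 93.9, 30.4 and 78.7% of members. With the 3 choosing lists limited to a −log10 q of at least 10, RING1B was called at 97.1, 88.6, 98.5, 94.0, 29.4 and 78.0% of members. With only the 194 members without PCGF1 in any list, RING1B was called at 94.3, 52.1, 86.6, 78.4, 15.5 and 45.9% of members. For SUZ12 in Pcgf2/4-/- the same alternatives gave 96.0, 96.1, 98.8, 98.6 and 89.2%. For H3K27me3 in Pcgf2/4-/- the same alternatives gave 97.6, 95.5, 98.9, 99.1 and 92.3%. For H2AK119Ub1 in Pcgf2/4-/- the same alternatives gave 87.0, 75.5, 91.9, 92.8 and 67.5%. The second RING1B sample of Pcgf1/2/4-/-, an alternative chosen after seeing the data, gave 18.2% in place of 632 of the 2629 members. Genes called numbered 519, 398, 400, 801, 370 and 869 in the 6 lines, and 31, 28, 24, 43, 22 and 42 for the members without PCGF1 in any list, where few genes are left. A fit of wild-type and Pcgf2/4-/- alone, with less information on the spread, gave 183 for that line. Leaving out 1 library at a time gave 297 to 436 in Pcgf1-/-, 253 to 403 in Pcgf2/4-/-, 206 to 284 in Pcgf3/5-/-, 647 to 680 in Pcgf6-/-, 188 to 254 in Pcgf1/2/4-/- and 724 to 779 in Pcgf3/5/6-/-. The replicate numbers did not pair the libraries: same-numbered deviations correlated between -0.462 and 0.375 (median 0.0131), above 0.1 in 3 of 21 pairs of groups. With the replicate number as a block, 485, 354, 367, 777, 343 and 851 genes were called, each within 1.5 times. Other size factors, loess scaling, DESeq2, no filter on low counts, the nearest start or a start within 1 kb kept every count of called genes within 1.5 times. The 48 largest results for single genes, 4 per line and direction, were also refitted. The 288 alternative values that left out no library kept their direction and their side of the threshold, and the 192 that left out 1 kept their direction. These genes were chosen for large called changes with no overlap of libraries, so such stability was nearly built in. Other results for single genes given above were not covered. Depth of the ChIP samples is not given in the deposited lists, so a peak that was not called may lie under the caller's limit. Low totals of counts limit the detection of low genes in Pcgf1/2/4-/- and Pcgf3/5/6-/-.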
